A study of Mus musculus with 49 samples.

Results

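The genes described here were 10 acute phase genes of the mouse liver: the serum amyloid A genes Saa1, Saa2 and Saa3, the orosomucoid genes Orm1, Orm2 and Orm3, and Hp, Lbp, Apcs and Fgl1. They were chosen by gene symbol in the annotation of the array, out of 21517 genes with a symbol. Each was read by 1 probe set, and each probe set is named after a RefSeq transcript of its gene. The study hybridized RNA of livers and liver tumors of FVB mice to a custom Affymetrix array, 49 samples in all. At 7 weeks of age there were 7 LAP-tTA livers, from mice that carry the Tet transactivator under a liver-specific promoter, by the methods in 2 copies. At 6 weeks there were 7 livers labelled Tre-c-Met, called TRE-MET here, for which the labels name only the transgene that places human MET under Tet control, while the methods of the study describe mice with both transgenes, 1 copy of each. At 14 weeks there were 7 control livers, labelled FVB-WT although the methods describe LAP-tTA mice as the control strain. Also at 14 weeks, 7 mice with MET tumors each gave 1 sample of liver distant from the tumors, 1 of liver adjacent to them and 2 tumors, terms read from abbreviations in the labels. These mice are labelled LAP-tTA-Tre-met, so that by the labels they carried both transgenes. TRE-MET sample 1 is 6 weeks old by its title and 14 weeks old by its age field. In the younger comparison age went with strain, so that the effects of age and of genotype cannot be told apart. At 14 weeks, by the labels, the tumor-bearing mice differed from control mice by both transgenes. The effects of each transgene and of the tumors cannot be told apart there.

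The acute phase response is the change in liver protein output that follows infection, injury or inflammation. Interleukin 1 and interleukin 6 reach hepatocytes through the blood, and the transcription factors NF-kB, C/EBP beta and STAT3 then raise the transcription of secreted plasma proteins. SAA1 and SAA2 are carried on high-density lipoprotein and SAA3 is also made by macrophages and adipocytes. Orosomucoids, or alpha-1-acid glycoproteins, are lipocalins that bind drugs and lipids in plasma. Haptoglobin (Hp) captures free hemoglobin, LPS-binding protein (Lbp) hands bacterial lipopolysaccharide to CD14, serum amyloid P (Apcs) is the major acute phase pentraxin of the mouse, and fibrinogen-like 1 (Fgl1) is a hepatokine and a ligand of the T-cell receptor LAG3.

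The genes of each family lie side by side. In assembly GRCm38.p6, Saa3, Saa1 and Saa2 occupy chromosome 7 from 46711998 to 46754313, and Orm1, Orm3 and Orm2 chromosome 4 from 63344556 to 63365877. Saa1 and Saa2 differ little from each other in sequence, as do the orosomucoid genes, and the sequences of the probes were not used here, so RNA of one paralog binding to the probes of another was not tested. The 250 bases before the start of 1 annotated transcript are shown for the Saa genes and for Orm2 and Orm3, because these 5 genes lie in 2 clusters of neighboring paralogs and moved side by side in the TRE-MET livers described below. The sequences are those of RefSeq, written along the strand of the gene, and the capitals mark matches on either strand to TTNNGNAA, a core of the C/EBP binding site. The windows are chr7:46742981-46743230 on the minus strand for Saa1, chr7:46751583-46751832 on the plus strand for Saa2, chr7:46715677-46715926 on the minus strand for Saa3, chr4:63362199-63362448 on the plus strand for Orm2 and chr4:63355908-63356157 on the plus strand for Orm3. For Saa2 and Orm2 the span annotated for the whole gene begins right after the window. For Saa1 and Orm3 that span overlaps the window and for Saa3 it holds all of it, so these starts are not the outermost ones annotated.
Saa1: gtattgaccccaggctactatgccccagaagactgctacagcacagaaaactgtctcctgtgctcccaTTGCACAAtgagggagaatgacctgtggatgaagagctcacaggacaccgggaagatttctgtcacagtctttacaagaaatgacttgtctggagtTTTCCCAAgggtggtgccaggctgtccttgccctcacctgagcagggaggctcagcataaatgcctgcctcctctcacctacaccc
Saa2: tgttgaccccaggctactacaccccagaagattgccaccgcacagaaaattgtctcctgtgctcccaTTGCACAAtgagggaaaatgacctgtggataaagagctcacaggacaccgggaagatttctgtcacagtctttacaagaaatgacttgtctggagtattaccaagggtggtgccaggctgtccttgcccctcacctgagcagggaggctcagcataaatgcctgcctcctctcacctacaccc
Saa3: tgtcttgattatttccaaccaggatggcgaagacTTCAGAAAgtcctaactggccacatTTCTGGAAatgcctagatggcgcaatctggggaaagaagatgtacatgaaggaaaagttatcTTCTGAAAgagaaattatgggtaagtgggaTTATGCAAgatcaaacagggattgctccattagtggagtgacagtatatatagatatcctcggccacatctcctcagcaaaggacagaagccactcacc
Orm2: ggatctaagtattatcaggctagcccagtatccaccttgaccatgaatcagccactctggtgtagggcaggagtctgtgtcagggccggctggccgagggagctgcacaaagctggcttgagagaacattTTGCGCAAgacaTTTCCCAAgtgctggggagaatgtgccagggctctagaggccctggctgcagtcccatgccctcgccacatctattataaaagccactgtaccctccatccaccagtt
Orm3: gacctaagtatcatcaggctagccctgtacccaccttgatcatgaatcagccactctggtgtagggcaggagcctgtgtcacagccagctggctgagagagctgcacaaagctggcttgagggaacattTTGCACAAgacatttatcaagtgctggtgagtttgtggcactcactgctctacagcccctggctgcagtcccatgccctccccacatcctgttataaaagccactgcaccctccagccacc

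In a global alignment the Saa1 and Saa2 windows were identical over 94.8% of the aligned columns, Orm2 and Orm3 over 85.9%, and Saa3 shared 50.2% with Saa1. The C/EBP core was present 2 times before Saa1, 1 time before Saa2, 4 times before Saa3, 2 times before Orm2 and 1 time before Orm3, against 36.8% of 32851 RefSeq promoter windows of the same length with at least 1 match. The match TTGCACAA stands 182 bases before the start of Saa1, 183 before that of Saa2 and 121 before that of Orm3. Searched for as well were the STAT core TTCNNNGAA, which 7.02% of windows hold, the interleukin 6 element CTGGGAA (9.1%), a consensus for NF-kB (1.41%) and TATAAA (12.4%). None of the 5 windows held a match to the first 3, and TATAAA was found 1 time each before Orm2 and Orm3. The Apcs window held no C/EBP core, no NF-kB consensus, 1 match to the STAT core and 2 matches to CTGGGAA. No match of one of these motifs overlapped a match of another. Such matches are letters in a window and not measured binding, and a missing match says only that these letters are not there. Promoters of Orm1, Hp, Lbp and Fgl1 were not used here.

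Deposited values were RMA intensities, which are background-corrected, normalized across arrays and summarized over the probes of a probe set, given as linear values that average 1.0 over the probe sets of a sample. Levels below are log2 of this intensity, so that a difference of 1 is a doubling, and levels of different probe sets are not compared. The number of arrays limits the precision, and nothing in the labels says more of the replicates than that they are numbered mice. The median probe set of a sample lay between −3.42 and −3.2 and the brightest between 6.85 and 7.17. Alb, the defining hepatocyte transcript, lay at the top of this scale in every sample (6.85 to 7.17), where saturation was not tested, so its level is no measure of hepatocyte content. The hepatocyte marker Cps1, an enzyme of the urea cycle, lay at 4.77 to 5.47 in all non-tumor samples and at −2.71 to 4.37 in the 14 tumors. Cyp2e1, another hepatocyte marker, did not part all non-tumor samples from tumors, at 5.68 to 6.43 and 5.75 to 6.49. It lay at 5.69 to 6.09 in distant, 5.68 to 6.21 in adjacent and 6.22 to 6.41 in control livers. Tumors other than 1b (5.75) lay at 6.28 to 6.49, above all distant and adjacent livers, the other way from Cps1. The summed intensity of 9 hepatocyte markers, Alb among them, was 417 to 488 in all non-tumor samples and 234 to 411 in the 14 tumors. That of 8 Kupffer cell markers was 10.1 to 26.1 and 3.35 to 16.5. The adipose marker Adipoq lay at −5.38 to −4.5 in every sample. In bulk RNA, fewer cells of a type and less RNA per cell cannot be told apart.

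**Figure D1:**
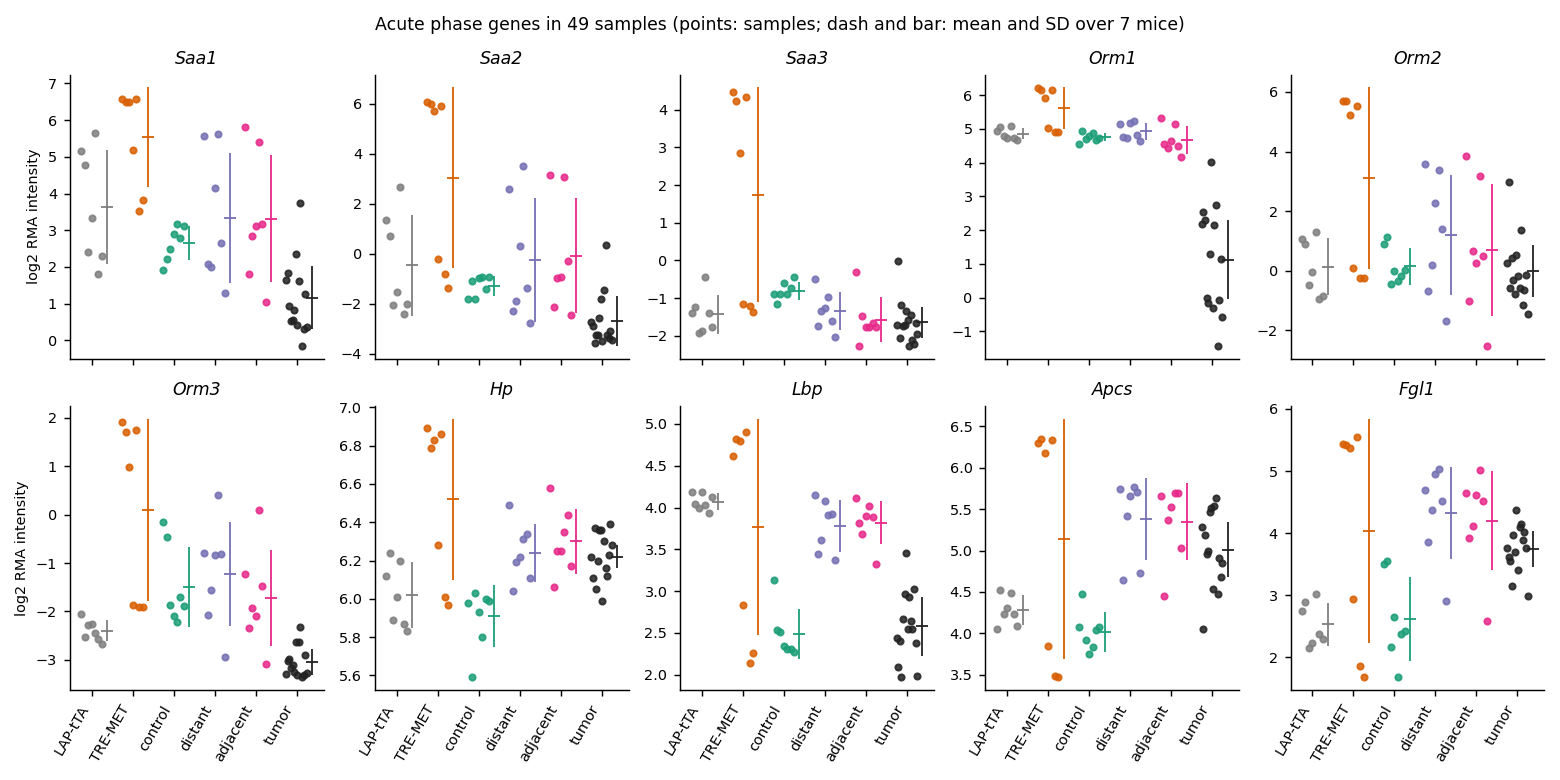
Log2 RMA intensity of each of the 10 genes (y axes, each with its own range) in the 49 samples, by group (x axis). Points are samples, with 14 tumors from 7 mice, and the dash and bar beside them are the mean and SD over 7 mice, tumors averaged within a mouse. TRE-MET livers fall into a high and a low set for all 10 genes, and Orm1 is lower in the 14 tumors than in any other sample.

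TRE-MET livers had the highest group mean for 7 of the 10 genes, the 3 Saa genes, the 3 Orm genes and Hp. For Lbp the highest mean was that of LAP-tTA livers and for Apcs and Fgl1 that of distant liver. Tumors had the lowest mean for the 3 Saa and the 3 Orm genes, control livers for Hp, Lbp and Apcs, and LAP-tTA livers for Fgl1. With the groups of each gene in the order of their means and tumors averaged within a mouse, only 2 pairs of neighbors did not overlap in range: adjacent liver and tumors for Orm1, and tumors and LAP-tTA livers for Apcs. The SD within a group differed widely between groups. For Saa2 it was 0.39 in control livers (n = 7), 2.02 in LAP-tTA (n = 7), 2.48 in distant (n = 7), 2.3 in adjacent (n = 7) and 3.61 in TRE-MET livers (n = 7). For Hp, the steadiest gene, it ran from 0.06 in tumors (7 mouse means) to 0.42 in TRE-MET livers. Hp lay near the top of the scale, where saturation was not tested.

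TRE-MET livers at 6 weeks were compared with LAP-tTA livers at 7 weeks, to ask what differs in the liver before tumors are taken. Of the 10 genes, Saa3, Orm1, Orm3 and Hp were higher in TRE-MET livers (4 higher and 0 lower at a limma adjusted p under 0.05), where 6.86% of all 43681 probe sets were called, 3.26% as higher and 3.6% as lower. The median change of the 10 genes was 1.7 on the log2 scale, against 0.01 over all probe sets.

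The spread was wide among TRE-MET livers, and the same ones, numbers 1, 2, 3 and 5, lay above numbers 4, 6 and 7 for each of the 10 genes. This grouping was read from these same values. The share of all probe sets that part the livers alike was not counted, so it is not shown to be particular to these genes. Saa2 had a log2 intensity of 6.06, 5.99, 5.73 and 5.92 in TRE-MET livers 1, 2, 3 and 5 and of −0.22, −0.81 and −1.35 in livers 4, 6 and 7. In LAP-tTA livers it ran from −2.41 through a median of −1.52 to 2.69, so that livers 4, 6 and 7 lay within the LAP-tTA range and the other 4 above it. The mean difference for Saa2 was 3.51 (SE 1.238) and did not pass (limma adjusted p = 0.105).

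Saa3, the isoform made in many tissues, lay at 4.47, 4.23, 2.85 and 4.35 in TRE-MET livers 1, 2, 3 and 5 and at −1.16, −1.22 and −1.38 in livers 4, 6 and 7. Its LAP-tTA values ran from −1.93 through −1.4 to −0.44, and the ranges overlapped. Saa3 was 9-fold higher on average (log2 change 3.17, SE 0.867, limma adjusted p = 0.0306). Saa1 lay at 6.49 to 6.58 in TRE-MET livers 1, 2, 3 and 5 and at 5.2, 3.52 and 3.83 in livers 4, 6 and 7, against 1.82, 3.33 and 5.64 as lowest, median and highest in LAP-tTA livers. Its difference of 1.89 (SE 0.619) did not pass (limma adjusted p = 0.0757).

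Among the orosomucoids, Orm3 was the gene whose ranges did not overlap. It lay at −1.91 to −1.86 in TRE-MET livers 4, 6 and 7 and at 0.99 to 1.92 in livers 1, 2, 3 and 5, against −2.67 to −2.06 in the LAP-tTA group, a 5.66-fold difference (log2 change 2.5, SE 0.57, limma adjusted p = 0.00882). Orm1, the orosomucoid that was already bright in every non-tumor liver, was 1.68-fold higher (log2 change 0.75, SE 0.201, limma adjusted p = 0.0278), with 5.91 to 6.2 in livers 1, 2, 3 and 5, 4.9 to 5.04 in livers 4, 6 and 7, and 4.67 to 5.1 in LAP-tTA livers. Orm2 lay at 5.23 to 5.71 and at −0.25 to 0.08 in the same livers, and its difference of 2.96 (SE 0.953) did not pass (limma adjusted p = 0.0701). Orm2 had the larger mean difference and Orm3 the smaller spread.

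Of the other secreted proteins, Hp, the hemoglobin scavenger, was called: it lay at 6.79 to 6.89 in livers 1, 2, 3 and 5, at 5.97 to 6.28 in livers 4, 6 and 7 and at 5.83 to 6.24 in the LAP-tTA group (log2 change 0.49, SE 0.144, limma adjusted p = 0.0437). The brightest probe set of a sample reached 6.85 to 7.17, and saturation at this end was not tested. Lbp went both ways. It lay at 4.62 to 4.9 in livers 1, 2, 3 and 5, above the LAP-tTA range of 3.93 to 4.19, and at 2.14 to 2.84 in livers 4, 6 and 7, below that range, so that the mean difference was −0.3 (SE 0.39, limma adjusted p = 0.77). Apcs and Fgl1 showed the same crossing in part, with Apcs at 3.47 to 3.85 in livers 4, 6 and 7, below the LAP-tTA range of 4.05 to 4.52, and at 6.18 to 6.35 in the others. Their mean differences, 0.86 (SE 0.439) and 1.51 (SE 0.55), did not pass (limma adjusted p = 0.314 and 0.12).

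**Figure D2:**
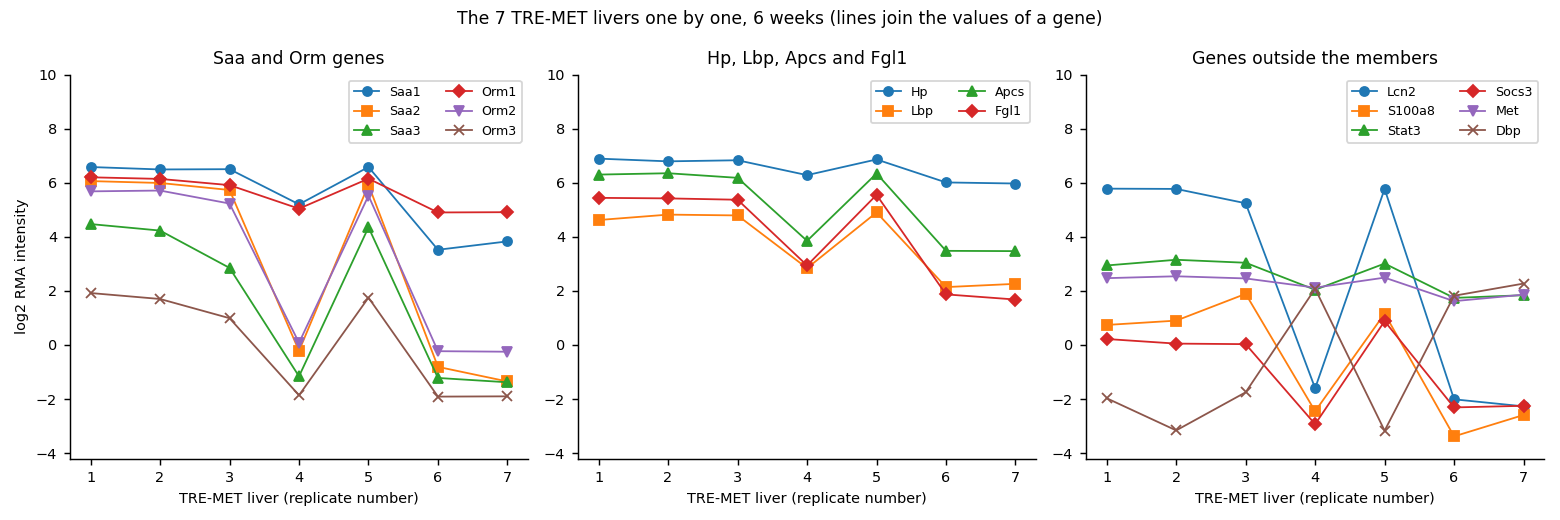
Log2 RMA intensity (y axis) in each of the 7 TRE-MET livers (x axis, replicate number), for the Saa and Orm genes, for the other 4 acute phase genes and for 6 genes outside the group. Lines join the values of a gene only to guide the eye, since replicates have no order. All 10 acute phase genes, Lcn2, S100a8, Stat3, Socs3 and Met are higher in livers 1, 2, 3 and 5 than in livers 4, 6 and 7, and the clock-controlled gene Dbp is lower.

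Other genes and markers moved with these livers. Lcn2, a neutrophil and hepatocyte lipocalin that binds bacterial siderophores, lay at 5.24 to 5.78 in livers 1, 2, 3 and 5 and at −2.27 to −1.6 in livers 4, 6 and 7. Socs3, the feedback inhibitor that STAT3 induces, lay at 0.03 to 0.88 against −2.93 to −2.25, and Stat3 at 2.94 to 3.15 against 1.74 to 2.04. Socs3 just missed the threshold over the 7 and 7 livers and Stat3 just passed it (log2 changes 1.65 and 0.68, limma adjusted p = 0.051 and 0.0487). The Stat3 call was lost in 10 of the 14 fits that leave out 1 mouse, those without TRE-MET 1, 2, 3 or 5 or without LAP-tTA 1 to 6 (adjusted p up to 0.111), and with quantile normalization (0.0532), median centring (0.0541) and the methods' test after adjustment (0.154). Il6 itself lay at −5.07 to −4.6 in TRE-MET livers, at the bottom of the scale as in LAP-tTA livers (−5.08 to −4.83).

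The 9 neutrophil markers measured summed to 4.98, 5.43, 10.6 and 6.43 in livers 1, 2, 3 and 5, to 1.2, 1.06 and 1.1 in livers 4, 6 and 7 and to 1.03 to 1.33 in LAP-tTA livers, and 2 of the 9, S100a8 and S100a9, were called higher. Dbp, a clock output gene, lay at −3.17 to −1.75 and at 1.82 to 2.27 in the 2 sets of TRE-MET livers, and at 0.83 to 1.29 in LAP-tTA livers. The summed intensity of 8 Kupffer cell markers was 14.5, 17.2, 16.2 and 14.6 in livers 1, 2, 3 and 5 and 10.7, 11.2 and 10.2 in livers 4, 6 and 7, against 10.2 to 13.2 in LAP-tTA livers, and that of 9 hepatocyte markers was 460, 417, 444 and 449 against 488, 476 and 464. Neither sum overlapped between the 2 sets of livers. The hepatocyte sums came as close as 460 and 464, and LAP-tTA livers had 454 to 480. That sum includes the bright Alb, for which saturation was not tested. Over the 7 and 7 livers, 1 of 13 clock genes was called, Npas2, as higher, and of 23 hepatocyte, Kupffer cell and adipose markers limma called 0, with 3 at an unadjusted p under 0.05. Over all probe sets, 6.86% were called and 18.4% had an unadjusted p under 0.05. The probe set of mouse Met lay at 2.46 to 2.54 and at 1.62 to 2.12 in the 2 sets of TRE-MET livers. It lay at 1.67 to 2.01 in LAP-tTA livers and at 2.06 to 2.45 in the control livers of 14 weeks. Binding of RNA of the human MET transgene to this probe set was not tested. Whether cell content, time of day, Met level or another property has a part in the difference among these livers was not tested.

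The count of called genes rested on single livers. Without TRE-MET 1, 2, 3 or 5, or without LAP-tTA 3, 4, 6 or 7, only Orm3 was called, without LAP-tTA 1 it was Orm1 and Orm3, and without TRE-MET 6 or TRE-MET 7 it was 8 of the 10 genes. With all 6 groups in one fit 6 of the 10 were called: Orm1 was not (adjusted p = 0.125), while Saa2, Orm2 and Fgl1 were (limma adjusted p = 0.0401, 0.0339 and 0.0335). By the methods' test 0 of the 10 passed after Benjamini-Hochberg adjustment, with 1 at an unadjusted p under 0.01, Orm3.

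Distant and adjacent liver of the tumor-bearing mice were each compared with control liver to ask what differed outside the tumors. Hp, Lbp, Apcs and Fgl1 were higher in both tissues, whereas the 6 Saa and Orm genes were not called in distant liver and only Saa3 was called, as lower, in adjacent liver. In distant liver 4 genes were called higher and 0 lower, where 5.06% of all probe sets were called. In adjacent liver it was 4 higher and 1 lower, where 7.0% were called, 1680 probe sets as higher and 1378 as lower. With median centring these were 911 and 2125, and the 10 genes still gave 4 higher and 1 lower. Both comparisons share the control livers, and both tissues came from the same mice. The median change of the 10 genes was 0.85 and 0.61, against −0.01 and 0.04 over all probe sets.

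Lbp, which presents lipopolysaccharide to CD14, lay at 2.27 to 3.13 in control livers with a median of 2.35, at 3.37 to 4.15 in distant liver with a median of 3.91 and at 3.32 to 4.11 in adjacent liver with a median of 3.89. Neither tissue overlapped with controls. The difference was 2.45-fold in distant liver (log2 change 1.3, SE 0.143, limma adjusted p = 2.49e-05) and 2.52-fold in adjacent liver (log2 change 1.33, SE 0.133, limma adjusted p = 8.68e-06). By the labels the tumor-bearing mice carried LAP-tTA and the control mice did not, and LAP-tTA livers at 7 weeks had Lbp at 3.93 to 4.19, above all control livers. The part of the transactivator in this difference was not tested.

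Apcs, the pentraxin, had a median of 4.04 in control, 5.66 in distant and 5.53 in adjacent liver, with ranges of 3.75 to 4.47, 4.65 to 5.77 and 4.45 to 5.7. Distant liver did not overlap with controls, and adjacent liver did through mouse 2. The differences were 2.57-fold and 2.5-fold (log2 change 1.36, SE 0.175 and 1.32, SE 0.169, limma adjusted p = 0.000124 and 0.000119). Fgl1, the hepatokine, had medians of 2.42, 4.51 and 4.51 with ranges of 1.69 to 3.55, 2.91 to 5.03 and 2.58 to 5.01, and both tissues overlapped with controls through mouse 7. It was 3.27-fold higher in distant and 2.99-fold higher in adjacent liver (log2 change 1.71, SE 0.318 and 1.58, SE 0.332, limma adjusted p = 0.00345 and 0.00764).

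Hp, near the top of the scale where saturation was not tested, changed least in size. It lay at 5.59 to 6.03 in control, at 6.04 to 6.49 in distant and at 6.06 to 6.58 in adjacent liver, without overlap, 1.26-fold and 1.31-fold higher (limma adjusted p = 0.0247 and 0.0118). The call in distant liver was lost without distant 5, distant 6 or control 5 (adjusted p = 0.0519, 0.0578 and 0.0529) and with all groups in one fit (0.0703). Saa3 was lower in adjacent liver (log2 change −0.77, SE 0.209, limma adjusted p = 0.0337), a call lost in 10 of the 14 fits that leave out 1 mouse, those without adjacent 2, 3, 4, 5 or 6 and those without control 3, 4, 5, 6 or 7, at adjusted p-values up to 0.0693, and with all groups in one fit (0.48).

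For Saa1, Saa2, Orm2 and Orm3 the differences between mice were larger than those between groups. Saa2 lay at 2.58 and 3.17 in distant and adjacent liver of mouse 1 and at 3.53 and 3.09 in those of mouse 5, above all 7 controls (−1.8 to −0.93). In mouse 7 it lay at −2.76 and −2.43, below all controls, and mouse 2 was also below them at −2.29 and −2.12. Orm2 followed the same mice, at 3.59 and 3.84 in mouse 1, 3.39 and 3.18 in mouse 5 and −1.69 and −2.52 in mouse 7, against −0.44 to 1.14 in controls.

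Saa1 lay at 5.56 and 5.81 in mouse 1, at 5.61 and 5.4 in mouse 5 and at 1.3 and 1.06 in mouse 7. Some pairs of tissues lay further apart. In mouse 4 distant liver was above adjacent liver for Saa1 (4.16 and 3.12), Saa2 (0.32 and −0.93) and Orm2 (2.28 and 0.27), and in mouse 6 for Orm2 (1.41 and 0.51), while Saa2 was lower in distant liver of mouse 6 (−1.36 and −0.3) and of mouse 3 (−1.87 and −0.95). Over the 7 mice the mean absolute difference between both tissues of a mouse was 0.49 for Saa1, 0.68 for Saa2 and 0.71 for Orm2, well inside the SDs between mice (1.77, 2.48 and 2.02 in distant liver). The mean changes of Saa1, Saa2 and Orm2 against controls, 0.68, 1.01 and 1.06 in distant liver (SE 0.571, 0.782 and 0.66), did not pass (limma adjusted p = 0.605, 0.559 and 0.442). Orm1 did not pass either, at 0.18 (SE 0.099, limma adjusted p = 0.37).

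Control livers were close to each other for Saa1, Saa2 and Saa3 but not for all genes. Controls 1 and 2 had Orm3 at −0.16 and −0.46 while the other 5 lay at −2.22 to −1.71, and Fgl1 at 3.5 and 3.55 while the others lay at 1.69 to 2.65. Orm2 was also highest in these controls, at 0.9 and 1.14. The clock output gene Dbp parted the same controls, at 2.67 and 2.91 against 0.22 to 0.73 in the other 5, and lay at 0.78 to 2.76 in distant and 0.36 to 2.85 in adjacent liver. Of 13 clock genes Nr1d1, a repressor of the clock, was called 2.1-fold and 2.08-fold lower in distant and adjacent liver (limma adjusted p = 0.00068 and 0.00493), and Per1 was called higher in adjacent liver. Over all probe sets 5.06% and 7.0% were called. At an unadjusted limma p under 0.05 it was 8 and 5 of the 13 clock genes, against 17.9% and 21.9% of all probe sets. The neutrophil markers S100a8 and S100a9 were higher in distant liver (log2 changes 1.28 and 1.11) and in adjacent liver (1.08 and 0.84), of 9 neutrophil markers of which 3 and 2 were called higher. The part of neutrophil markers or of clock genes in the changes of Hp, Lbp, Apcs and Fgl1 was not tested.

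Between adjacent and distant liver, paired by mouse, 0 of the 10 genes and 0 of all probe sets (0.0%) were called by limma. At an unadjusted p under 0.05 it was 3 of the 10 genes and 5824 probe sets (13.3%). The methods' test, which leaves out the pairing by mouse, called 1199 probe sets at an unadjusted p under 0.01 and 0 after adjustment. Orm3 was lower in adjacent liver in 7 of 7 mice (log2 change −0.49, SE 0.11, limma adjusted p = 0.21) and Hp higher in 7 of 7 (0.06, SE 0.057, limma adjusted p = 0.689).

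**Figure D3:**
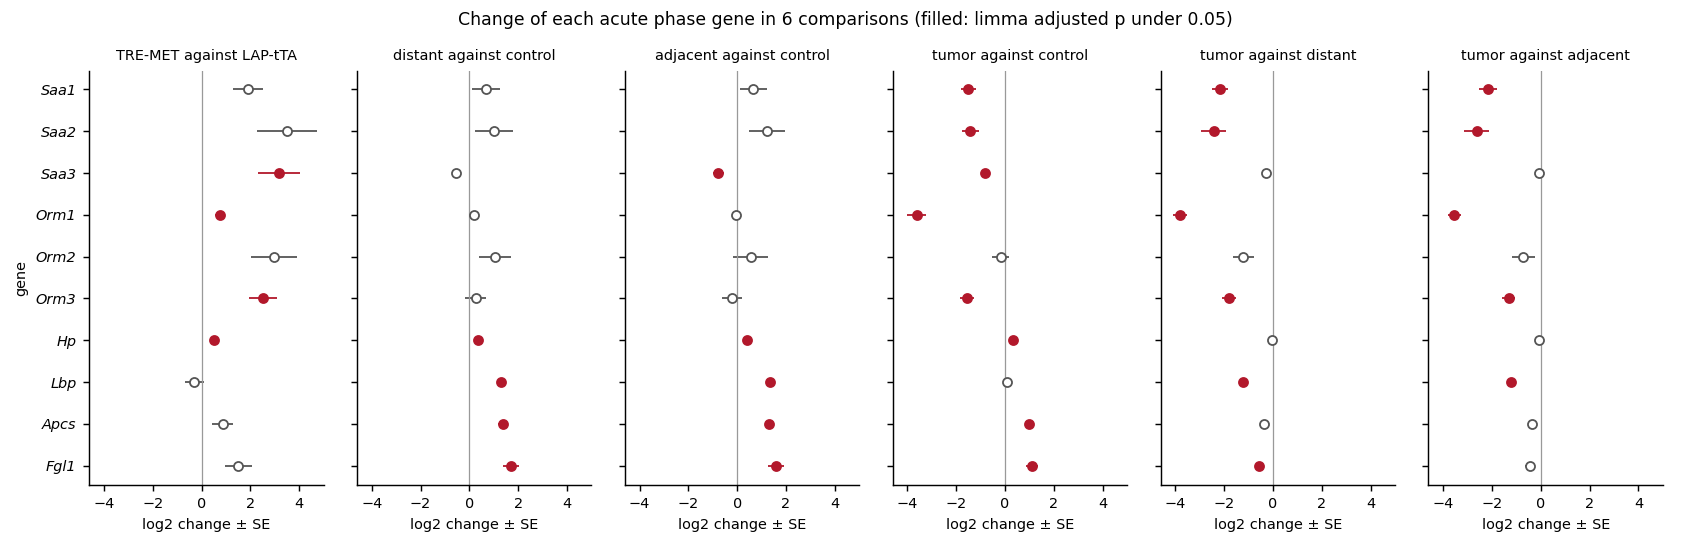
Log2 change (x axis, points, with SE as bars) of each of the 10 genes (y axis) in 6 comparisons. Filled points have a limma adjusted p under 0.05. The changes of Hp, Lbp, Apcs and Fgl1 lie right of 0 in distant and adjacent liver. Those of all Saa and Orm genes lie left of 0 in all 3 comparisons of tumors, where Saa1, Saa2, Orm1 and Orm3 are filled each time.

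Tumors parted the 10 genes. Against control liver, Saa1, Saa2, Saa3, Orm1 and Orm3 were lower and Hp, Apcs and Fgl1 were higher (3 higher and 5 lower), where 29.2% of all probe sets were called, 13.4% as higher and 15.8% as lower. Against distant liver of the same mice Saa1, Saa2, Orm1, Orm3, Lbp and Fgl1 were lower (0 higher and 6 lower), where 26.6% were called and 13.1% as lower. Against adjacent liver it was 0 higher and 5 lower, the same genes without Fgl1, where 32.8% were called and 20.1% as lower. The balance over all probe sets in this comparison rested on the scaling, with 5545 higher and 8779 lower as deposited, 7051 and 3490 with median centring and 4958 and 5496 with quantile normalization, while the 10 genes gave 0 higher and 5 lower under each. The median change of the 10 genes was −0.5, −1.22 and −0.98, against −0.05, −0.05 and −0.1 over all probe sets. Hepatocyte and Kupffer cell marker sums were lower in tumors, as given above. Against control liver 5 of 9 hepatocyte markers and 7 of 8 Kupffer cell markers were called lower and 0 higher. Against distant and adjacent liver 6 and 5 of the hepatocyte markers were called lower and 1 higher in each. The part of cell content in the changes below was not tested.

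Orm1 had the largest difference of the 10. Its log2 intensity was 4.55 to 4.94 in control livers with a median of 4.74, and in the 14 tumors it ran from −1.43 through a median of 1.23 to 4.02. No tumor reached the lowest non-tumor liver of the study, adjacent liver of mouse 7 at 4.16. On mouse means it was 12.3-fold lower than in control (log2 change −3.62, SE 0.389, limma adjusted p = 2.64e-06), 13.9-fold lower than in distant liver (−3.8, SE 0.288, limma adjusted p = 6.49e-06) and 11.7-fold lower than in adjacent liver (−3.55, SE 0.262, limma adjusted p = 2.23e-05), and lower in 7 of 7 mice in both paired comparisons. Orm3 ran from −3.36 through −3.13 to −2.33 in tumors, close to the median probe set of a sample, where a further fall may not be seen, and did not overlap with controls (−2.22 to −0.16). It was lower than in control (log2 change −1.55, SE 0.287, limma adjusted p = 0.000583) and lower than in distant liver in 7 of 7 mice (−1.81, SE 0.279, limma adjusted p = 0.000731).

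Orm2 did not pass in any of the 3 comparisons. Its 14 tumor values, −1.46 to 2.98 with a median of −0.24, overlapped those of control liver (−0.44 to 1.14, median −0.02), and the differences were −0.17 (SE 0.35) against control, −1.22 (SE 0.434) against distant and −0.72 (SE 0.478) against adjacent liver (limma adjusted p = 0.757, 0.0609 and 0.255). Against distant liver Orm2 was called as lower without mouse 2 or mouse 7 (0.0287 and 0.0187), with quantile normalization (0.048) and with 1 probe set per gene (0.0496).

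All 3 Saa genes were lower in tumors than in control liver. Saa1 ran from −0.15 through 0.89 to 3.75 in tumors against 1.93, 2.78 and 3.17 in controls, a 2.82-fold difference (log2 change −1.5, SE 0.32, limma adjusted p = 0.002). Saa2 ran from −3.56 through −3.16 to 0.35 against −1.8, −1.1 and −0.93 (log2 change −1.42, SE 0.35, limma adjusted p = 0.00563), with 8 of 14 tumors at −3.09 or below, near the median probe set. The ranges of both overlapped with controls through tumors of mice 4 and 5. Both were lower than in distant liver in 7 of 7 mice (log2 changes −2.17, SE 0.336 and −2.43, SE 0.514, limma adjusted p = 0.000749 and 0.00529), including mice 1 and 5, whose livers were high.

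Saa3, which macrophages also make, was lower in tumors than in control liver by a smaller amount (log2 change −0.84, SE 0.16, limma adjusted p = 0.000768), and was not called against distant or adjacent liver of the same mice (−0.3, SE 0.119 and −0.07, SE 0.133, limma adjusted p = 0.0905 and 0.695). Against distant liver it was called without mouse 7 (0.0407) and with quantile normalization (0.0395). With all groups in one fit the calls of Saa1, Saa2, Saa3 and Fgl1 against control were lost (adjusted p = 0.082, 0.343, 0.32 and 0.054), which left 4 of the 10 genes, and Saa3 was not called when only tumor b of each mouse was used (0.0839).

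Among the other secreted proteins Lbp was the one at the control level in tumors. It ran from 1.97 through 2.55 to 3.46 in the 14 tumors and differed from control by 0.09 (SE 0.156, limma adjusted p = 0.705), while it was lower than in distant and in adjacent liver (log2 changes −1.21, SE 0.108 and −1.24, SE 0.119, limma adjusted p = 2.01e-05 and 6.86e-05), without overlap of mouse means and in 7 of 7 mice. Hp, Apcs and Fgl1 were higher than in control liver. Hp ran from 5.99 through 6.22 to 6.39 (log2 change 0.32, SE 0.07, limma adjusted p = 0.00236), and its mouse means did not overlap with controls.

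Apcs was 1.98-fold and Fgl1 2.18-fold higher than in control (log2 changes 0.98, SE 0.14 and 1.12, SE 0.246, limma adjusted p = 5.02e-05 and 0.00243). Against distant liver Fgl1 was lower in 6 of 7 mice (log2 change −0.59, SE 0.157, limma adjusted p = 0.0184). That call was lost without mouse 4 (0.0535) and, with that of Saa2, without the mouse as a block (0.114 and 0.0508) and with all groups in one fit (0.336 and 0.0749). Apcs and Hp did not pass against distant liver (−0.38, SE 0.166 and −0.02, SE 0.075, limma adjusted p = 0.123 and 0.884).

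**Figure D4:**
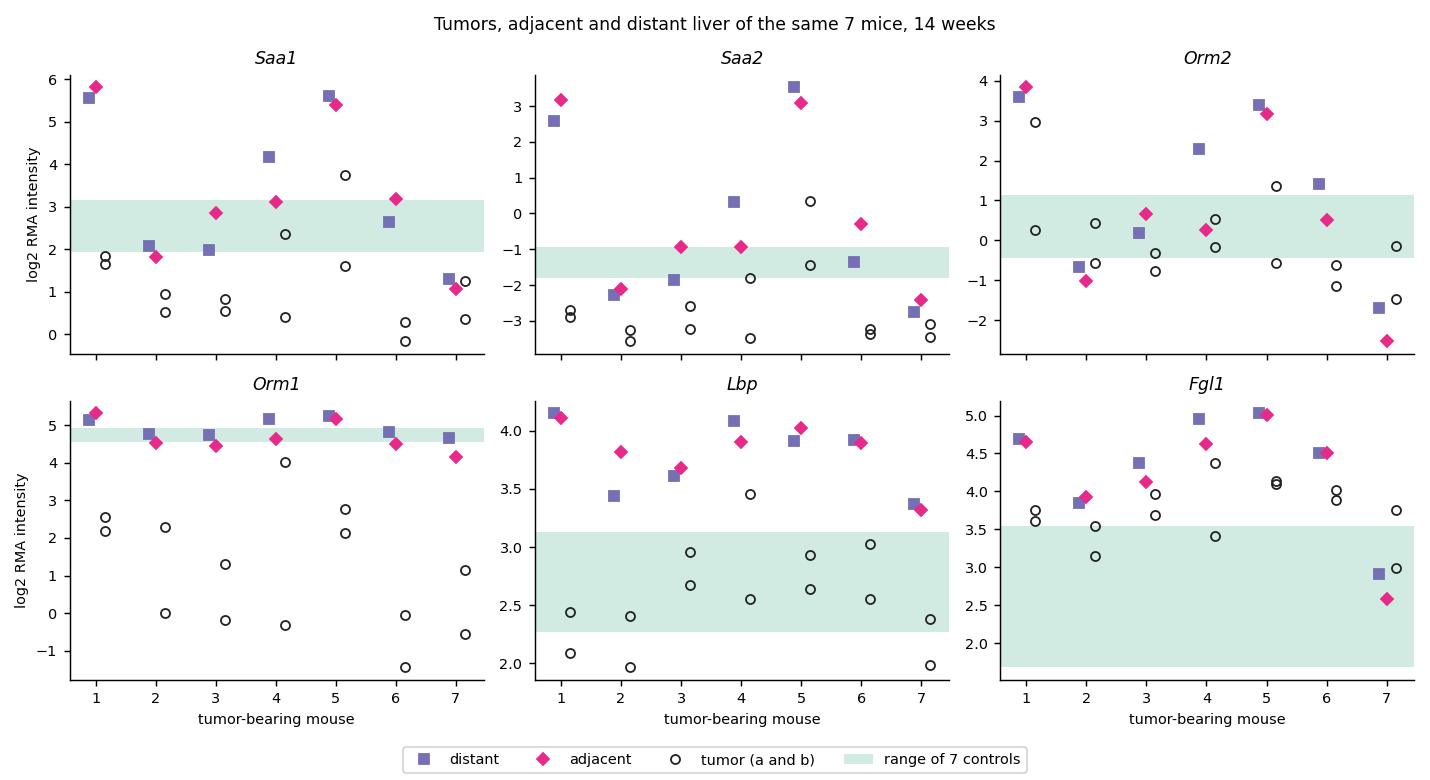
Log2 RMA intensity (y axes, each with its own range) of 6 genes in the 7 tumor-bearing mice (x axis): squares are distant liver, diamonds adjacent liver and open circles both tumors of a mouse, and the band is the range of the 7 control livers. Both liver samples of a mouse lie close together for most genes and mice, Saa1, Saa2 and Orm2 are high in mice 1 and 5, and Orm1 lies below the control band in all 14 tumors.

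Both tumors of one mouse could lie far apart. For Orm1 the tumors of mouse 4 lay at 4.02 and −0.32, a difference of 4.33, while all 14 tumors spanned 5.44. Over the 7 mice the mean absolute difference between both tumors was 1.74. The SD between mouse means was 1.18, which cannot be set against it, since each mean averages both tumors. Tumor 4a was also the highest of the 14 for Lbp (3.46) and Fgl1 (4.38) and second for Saa1 (2.36). Its hepatocyte marker sum was 402 and its Kupffer cell marker sum 16.5, against 334 and 6.84 in tumor 4b, and the part of cell content in this difference was not tested.

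Tumor 5b was the highest for Saa1 (3.75), Saa2 (0.35), Orm3 (−2.33) and Apcs (5.63), in a mouse whose liver was high as well. Tumor 1b stood apart in another way, with Saa3 at −0.02 and Orm2 at 2.98, the highest of the 14 tumors for both, but Apcs at 4.05, the lowest. Its neutrophil marker sum was 12, against 0.972 to 1.81 in the other 13 tumors, its S100a8 level was the highest of the tumors at 2.14, and its hepatocyte marker sum of 234 was the lowest. Whether these have a part in its Saa3 and Orm2 levels was not tested. Hp, near the top of the scale where saturation was not tested, varied least, with tumors of one mouse differing by 0.36 at most.

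Whether the difference at 6 to 7 weeks differed from that at 14 weeks in distant liver was tested as an interaction. It was called for 2 of the 10 genes, Saa3 and Lbp (1 higher and 1 lower), where 7.73% of all probe sets were called, 3.86% as higher and 3.87% as lower. The log2 change of Saa3 was 3.17 between TRE-MET and LAP-tTA livers and −0.54 between distant and control livers, a difference of 3.71 (SE 0.991, limma adjusted p = 0.0155). Lbp changed by −0.3 and 1.3, a difference of −1.6 (SE 0.46, limma adjusted p = 0.0265). The labels give other genotypes at the 2 ages, so that age and genotype cannot be told apart here.

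Beyond the 10 genes, 21 of 22 further positive acute phase genes were measured. In TRE-MET livers 7 of these were called as higher and 0 as lower, among them Saa4, the constitutively made serum amyloid A, the plasma glycoprotein gene Lrg1 and the metalloreductase gene Steap4 (log2 changes 0.77, 1.11 and 1.14). In distant liver 9 were higher and 1 lower and in adjacent liver 14 were higher and 0 lower. Over all probe sets, 3.26% were called higher and 3.6% lower in TRE-MET livers. These shares were 2.47% and 2.6% in distant liver and 3.85% and 3.15% in adjacent liver. Fgb, the fibrinogen beta chain, and the inter-alpha-inhibitor gene Itih4 were higher in distant liver by 0.28 and 0.38, and Cp, ceruloplasmin, was higher in adjacent liver by 0.59. The median changes of the list were 0.35, 0.38 and 0.42.

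In tumors against control liver 6 of the 21 were higher and 5 lower, where 13.4% of all probe sets were called higher and 15.8% lower. Lcn2 was 50-fold higher in tumors, at 3.52 to 5 against −1.98 to −0.7 in controls (log2 change 5.65, SE 0.21, limma adjusted p = 1.31e-11), and Hamp, which encodes the iron hormone hepcidin, was 7.78-fold lower (log2 change −2.96, SE 0.336, limma adjusted p = 4.83e-06). Lcn2, high in TRE-MET livers 1, 2, 3 and 5 along with Saa1 and Saa2, was thus high in tumors in which Saa1 and Saa2 were low. Of the 12 negative acute phase genes, 2 were lower in TRE-MET livers, the thyroid hormone carrier Ttr and the corticosteroid carrier Serpina6 (log2 changes −0.36 and −0.47). In distant and adjacent liver 1 was higher and 0 lower, the apolipoprotein M gene Apom (0.33 and 0.41), and 2 were higher and 4 lower in tumors than in control liver, with Igf1 9.89-fold lower. The share of all probe sets called was 6.86% in TRE-MET livers, 5.06% in distant liver, 7.0% in adjacent liver and 29.2% in tumors against control.

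Of 22 measured cytokines, receptors and regulators, limma called 8 as higher and 0 as lower in TRE-MET livers, with the interleukin 1 receptor Il1r1, the NF-kB inhibitor Nfkbia and the interleukin 6 receptor Il6ra at the smallest p (log2 changes 1.67, 0.58 and 0.83). In distant liver 2 were higher, the oncostatin M receptor Osmr and Stat3 (0.67 and 0.39), and in adjacent liver 6, with Osmr at 0.74. Of all probe sets, 3.26% were called higher in TRE-MET, 2.47% in distant and 3.85% in adjacent liver. The Stat3 call in distant liver was lost with all groups in one fit (adjusted p = 0.136), by the methods' test after adjustment (0.0628) and in 7 of the 14 fits that leave out 1 mouse, those without distant 1, 4, 5 or 6 or control 4, 5 or 7 (up to 0.0653). In tumors 6 were higher and 5 lower than in control, where 13.4% of all probe sets were called higher and 15.8% lower. Il1r1 was 4.52-fold higher there (log2 change 2.18, SE 0.187, limma adjusted p = 2.28e-07), Osmr 3.12-fold, and Socs3 rose by 0.96 (limma adjusted p = 0.000587), in tumors where Saa1, Saa2 and Orm1 were lower.

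Among 9 receptors and partners of these proteins, the hemoglobin-haptoglobin receptor gene Cd163 was higher in distant and adjacent liver (0.48 and 0.45) and 2.6-fold lower in tumors than in control, as were 7 of the 8 Kupffer cell markers, of which it is 1. Cd14 and Ly96, partners of Lbp in lipopolysaccharide recognition, were higher in tumors by 2.63 and 1.09 (limma adjusted p = 3.62e-06 and 6.63e-07). Ly96 was also higher in distant and adjacent liver, by 0.55 and 0.63.

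The likeness of levels over the 49 samples was taken as Pearson's r between log2 intensities, with no test because samples of one mouse and jointly normalized arrays are not independent. Saa1 and Saa2 were most alike among the 10 genes (r = 0.94), and Apcs and Fgl1 next to them in level pattern at r = 0.9. Orm1 was unlike Apcs (0.09) and Fgl1 (0.08). Outside the 10 genes, the sulfhydryl oxidase gene Qsox1 was closest to Saa1 (0.86) and to Saa2 (0.85), followed for Saa1 by Map2k3os (0.8), Itih3 (0.78), Mcfd2 (0.78) and Pdia5 (0.77). The histidine ammonia-lyase gene Hal was closest to Orm1 (0.95), the hemopexin gene Hpx to Hp (0.9), and Prtn3, the gene of a neutrophil serine protease, to both Apcs (0.9) and Fgl1 (0.89). The closest genes to Saa3, Orm2, Orm3 and Lbp were Crybb3 (0.89), the metallothionein gene Mt2 (0.8), Syne4 (0.86) and Cyp3a13 (0.84).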

How the data were processed

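Before deposit the authors normalized the 49 arrays as one set with RMA (version and genome build not given in the sources used here). Intensities were deposited as linear values between 0.0169 and 143.6 that average 1.0 per sample, a scaling not explained in the sources used here. For this report log2 was taken, nothing was added and no probe set was left out. Symbols were known for 30342 of 43681 probe sets, each with 1, and 6202 older symbols were brought up to date with gene names of GRCm38.p6.

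The tests were those of limma 3.58.1 (R 4.3.3), moderated by eBayes and two-sided. A fit held only the groups it compared, p-values were adjusted by Benjamini and Hochberg's method over every probe set, and a mouse entered with the mean of its tumors. Tissues of the same animals were compared with the mouse as a block. Same-mouse deviations from the group mean had r of 0.36 to 0.60 for adjacent with distant liver, 0.12 to 0.38 for tumors with distant liver and 0.03 to 0.34 for tumors with adjacent liver. Calls were tried on simulated normal values with the same SD in every group. This does not cover groups of unequal spread, such as TRE-MET and LAP-tTA livers. Tables and plots used Python 3.11.15, numpy 2.4.6, pandas 2.3.3 and matplotlib 3.10.9. Tried as alternatives were a threshold of 0.01, leaving out dim probe sets, median centring, quantile normalization, array weights, a fit of all 6 groups, the block added or removed, 1 probe set per gene, 1 tumor per mouse, the methods' test, and leaving out 1 mouse at a time.

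The 10 genes and the 9 other lists (other positive and negative acute phase genes, cytokine signals and regulators, receptors and partners, markers of hepatocytes, Kupffer cells, neutrophils and adipose tissue, and clock genes) were chosen with earlier results of these data known. Named besides the 10 genes were up to 3 called genes per list and comparison with the smallest adjusted p, the genes with the highest r, S100a8, Dbp, Stat3 and Socs3. Il6, Adipoq, Alb, Cyp2e1, Met and the single-liver values of Lcn2 were named after their values were seen.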

Additional observations from a re-analysis of the deposited data

Results flagged for a closer look

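In 4 of 60 sets of 7 values, 1 gene in 1 group each, the highest sample stood apart from the nearest of the others by Dixon's criterion, which chance alone meets in about 1 set of 20. Both tumors of mouse 5 averaged −0.55 for Saa2, where the next mouse was at −2.63, and −2.48 for Orm3, where the next was at −2.98. Adjacent liver of mouse 1 had Saa3 at −0.31, with the next at −1.47. Control liver 1 had Lbp at 3.13, with the next at 2.53.

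For 2 genes the difference between MET and comparison livers differed between the younger and the older mice by the interaction test, Saa3 by 3.71 (limma adjusted p = 0.0155) and Lbp by −1.6 (limma adjusted p = 0.0265).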

How the results depend on the processing

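Of the 10 genes, in TRE-MET against LAP-tTA livers 4 were called, 1 at an adjusted p under 0.01, 7 with the replicate number as a block, 1 by the methods' test at an unadjusted p under 0.01 and 0 after adjustment, and 1 to 8 when a mouse was left out. Replicate numbers mark different animals there (same-numbered deviations correlated at 0 to 0.09, and 2 of 7 pairs were best with their own number). Outside that comparison the replicate block changed no call of the 10 genes, and fitting tissues of the same mice without the block ended the calls of Saa2 and Fgl1 in tumors against distant liver (limma adjusted p = 0.0508 and 0.114) and no other call of these genes. In adjacent against control liver 3 of 5 passed an adjusted p under 0.01, and in tumors against control 4 of 8 were called with all groups in one fit. In tumors against distant liver it was 3 of 6 by the methods' test, which leaves out the pairing by mouse, at either threshold. In tumors against adjacent liver it was 3 of 5 at its unadjusted threshold, and 0 of 2 interactions passed an adjusted p under 0.01. Leaving out a mouse gave 3 to 5 genes in distant and 4 to 5 in adjacent against control liver, 8 to 8, 5 to 8 and 5 to 6 in tumors against control, distant and adjacent liver, and 2 to 3 for the interaction. The numbers of probe sets called moved by over 1.5 times in several settings: at an adjusted p under 0.01 they were 1592, 874, 1113, 8098, 6946, 6387 and 1886 of 2998, 2212, 3058, 12752, 11629, 14324 and 3376, for TRE-MET livers, distant, adjacent and tumor against control, tumor against distant and adjacent liver, and the interaction, and adjacent against control liver gave 1619 with the replicate block and 1999 without adjacent 6. With 1 probe set per gene they were 7963, 7533 and 8632 in the 3 comparisons of tumors, where fewer were tested, and by the methods' test at an unadjusted p under 0.01 3512 in distant against control liver. Between adjacent and distant liver they were 2 without mouse 1 and with median centring and 3 with all groups in one fit.

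Directions changed only for values that were not called: Orm3 in adjacent against control liver (0.002 with array weights), Orm2 and Lbp in tumors against control (0.093 and −0.025 with tumor b only), Hp in tumors against distant liver (0.009 with array weights or quantile normalization, 0.038 with tumor a only and 0.008 with median centring), Saa3 and Hp in tumors against adjacent liver (0.129 with tumor b only, 0.024 and 0.019 with median centring and 0.005 with quantile normalization), and Saa1, Hp and Lbp between adjacent and distant liver (0.026 with array weights, −0.011 and −0.028 with median centring). Outside the 10 genes it was Stat3 in tumors against adjacent liver (0.075 with median centring). With a mouse left out, values that crossed 0 ran from −0.013 to 0.545 for Orm3 in distant and from −0.18 to 0.013 for Orm1 in adjacent against control liver, from −0.058 to 0.033 for Hp in tumors against distant liver, from −0.188 to 0.011 for Saa3 and from −0.053 to 0.021 for Stat3 in tumors against adjacent liver, from −0.161 to 0.157 for Saa1 and from −0.018 to 0.075 for Lbp between adjacent and distant liver, and from −0.454 to 0.19 for the interaction of Fgl1. The causes were not tested. No second probe set of the 10 genes could be tried, since each has 1.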
